A study of Mus musculus with 37 samples.

Results

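The acute phase genes Saa1, Saa2, Saa3, Hp and Ptx3 were followed through the separate effects of LPS, of IL-10 and of both given in sequence in mouse myeloid cells. The members were taken by gene name from the deposited table of transcripts, where each has 1 transcript. They are 5 of 16993 named transcripts and 5 of 6509 genes. The members were chosen by their group means in these same comparisons, already known from the table, so their values are given as a description, with no test.

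RNA-seq was performed on 5 kinds of cells of C57Bl6cJ mice, namely splenic dendritic cells (sDCs), neutrophils of bone marrow, adherent macrophages of the peritoneum elicited with thioglycollate, and eosinophils and mast cells derived from bone marrow. The labels name no modified allele and no age. Macrophages, neutrophils, sDCs and mast cells were left untreated, given IL-10 for 4 h, given LPS for 4 h, or given IL-10 for 4 h and then LPS for a further 4 h, each agent at 100 ng/ml. Eosinophils were left untreated or given LPS only. In every neutrophil group the cells had first matured in GM-CSF overnight, and sDCs were enriched with magnetic beads. There were 2 replicates from independent mice per group, and 36 of 37 samples stand behind the 18 groups.

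The table has 1 column per group with values in steps of 0.5, read here as the authors' means over the 2 replicates, in tags normalized for GC content, and carries no SD and no n. No difference below can therefore be set against the spread between replicates, also where levels are ordered. Sequencing depth cannot be read from the table, since every group has the same highest value, 185338, and column totals between 10207959.5 and 11499748. The study's library list gives the shallowest libraries to replicate 1 of the macrophage groups with LPS, and another preparation kit to all sDC and some mast cell libraries. By the study's treatment scheme, groups with LPS were harvested later than groups without it, so LPS and the longer culture cannot be told apart, nor can the combination and the longer time after IL-10. The summed markers of each labelled cell type were highest in that cell type, although Ly6g, a neutrophil marker, stood at 188.5 in untreated eosinophils and 161.5 in untreated neutrophils. The summed means of the 5 macrophage markers in the table were between 99639.5 and 221225.5 in macrophages and at most 23018 elsewhere. The 4 dendritic cell markers summed to at least 95737.5 in sDCs, the 4 mast cell markers to at least 278190 in mast cells and the 3 eosinophil markers to at least 280958 in eosinophils. The dendritic cell sum was mostly Ccr7, at 185338 of 189846.5 in untreated sDCs. Among untreated groups Xcr1 (189.5) and Clec9a (243.5) were also highest in sDCs. Itgax was not, at 4075.5 in untreated sDCs and 13861 in untreated macrophages. The 6 neutrophil markers summed to 286413 in untreated neutrophils, 302923 with IL-10, 47457.5 with LPS and 86049 with both. Eosinophil markers also reached 27197.5 to 30791 in neutrophils. None of 8 hepatocyte markers was in the table, so hepatocyte RNA could not be looked for. In bulk RNA, fewer cells of a type and less RNA per cell cannot be told apart.

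Acute phase proteins are plasma proteins whose concentration changes during inflammation, and most of them are made by the liver under the control of IL-6, IL-1 and glucocorticoids through STAT3, C/EBP and NF-kB factors. IL-10 signals through STAT3 as IL-6 does, and in myeloid cells it shuts off part of the response to LPS, the anti-inflammatory response (AIR). Serum amyloid A proteins are apolipoproteins of high-density lipoprotein: Saa1 and Saa2 are the main hepatic forms in the mouse, whereas Saa3 is made outside the liver, by macrophages and adipocytes among others. Hp encodes haptoglobin, which binds free haemoglobin for uptake through CD163. Ptx3 encodes a long pentraxin, a secreted pattern recognition molecule that binds microbes and C1q.

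The 3 Saa genes lie together on chromosome 7 of mm9. Saa3 (ENSMUST00000006956) runs from 53967368 to 53971046 on the minus strand, Saa1 (ENSMUST00000128088) from 53995871 to 53998350 on the minus strand, and Saa2 (ENSMUST00000075982) from 54007203 to 54009684 on the plus strand. Each has 4 exons, and together they span 42.3 kb, with Saa4 between Saa3 and Saa1; Saa4 was not analysed here. Hp (ENSMUST00000074898) has 5 exons on the minus strand of chromosome 8 from 112099030 to 112103072. Ptx3 (ENSMUST00000029421) has 3 exons on the plus strand of chromosome 3 from 66023809 to 66029728.

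Saa1 and Saa2 are near-identical copies. Their coding sequences agree at 351 of 369 aligned bases (95.1%), and 51 of 556 stretches of 50 bases in the Saa1 transcript (9.17%) occur unchanged in Saa2. Saa3 is further away, with 76.1% coding identity to Saa1, 9 shared stretches with Saa1 and 0 with Saa2. The split of reads between Saa1 and Saa2 therefore rests on the authors' RSEM estimate and is uncertain. In macrophages with LPS, Saa3 stood at 70260 while Saa1 and Saa2 were both listed at 0. Read assignment was not tested.

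The 250 bases before the start of 4 of the 5 genes are shown because Saa1 and Saa2, which had the same pattern over treatments, also have nearly the same promoter. The sequences are RefSeq's, on GRCm38.p6, 5′ to 3′ on the strand of the gene: Saa1 at chr7:46742981-46743230 (minus strand), Saa2 at chr7:46751583-46751832 (plus strand), Saa3 at chr7:46715677-46715926 (minus strand) and Ptx3 at chr3:66219637-66219886 (plus strand). Capitals mark matches to a C/EBP consensus.
Saa1: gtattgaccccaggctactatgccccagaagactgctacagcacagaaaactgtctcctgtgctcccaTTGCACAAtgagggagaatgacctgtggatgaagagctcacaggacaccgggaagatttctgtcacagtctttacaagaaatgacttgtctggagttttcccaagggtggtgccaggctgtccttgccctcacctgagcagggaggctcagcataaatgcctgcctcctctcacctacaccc
Saa2: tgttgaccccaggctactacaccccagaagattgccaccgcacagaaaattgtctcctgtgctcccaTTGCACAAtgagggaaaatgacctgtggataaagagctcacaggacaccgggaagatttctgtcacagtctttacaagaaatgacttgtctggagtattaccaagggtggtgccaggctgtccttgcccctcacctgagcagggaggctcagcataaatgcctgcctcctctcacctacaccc
Saa3: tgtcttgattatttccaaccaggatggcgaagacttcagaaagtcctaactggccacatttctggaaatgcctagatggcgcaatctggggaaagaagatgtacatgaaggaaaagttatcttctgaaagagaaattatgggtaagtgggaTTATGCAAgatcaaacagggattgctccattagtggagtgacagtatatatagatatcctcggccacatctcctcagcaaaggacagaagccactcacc
Ptx3: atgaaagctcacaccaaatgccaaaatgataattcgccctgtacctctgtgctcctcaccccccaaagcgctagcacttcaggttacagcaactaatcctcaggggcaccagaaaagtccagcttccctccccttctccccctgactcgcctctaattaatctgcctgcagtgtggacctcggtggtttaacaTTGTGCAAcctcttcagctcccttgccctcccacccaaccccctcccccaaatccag

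The Saa1 and Saa2 promoters were identical at 238 of 251 aligned positions (94.8%), and Saa1 and Saa3 at 48.2%. The C/EBP consensus TTGCNNAA, searched on both strands, occurred once in each of the 4 windows. Counted back from the transcript start, it lay at bases 182 to 175 in Saa1, 183 to 176 in Saa2, 99 to 92 on the opposite strand in Saa3 and 57 to 50 on the opposite strand in Ptx3. Of 32851 RefSeq promoters of the same length, 9.56% held this consensus. The STAT consensus TTCNNNGAA (7.02% of promoters) and the NF-kB consensus (7.25%) did not occur in these windows. A match describes letters only, and no match says only that these letters were not in the window.

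Saa3 was listed at 0 in 1 group and lay between 0.5 and 94804 in the others. In macrophages it stood at 12611 untreated, 14111 with IL-10, 70260 with LPS and 94804 with both, which placed it at rank 83, 63, 10 and 5 of 16993 transcripts. In neutrophils the means were 5 untreated, 13.5 with IL-10, 4125.5 with LPS and 14657.5 with both. In sDCs they were 0.5, 9.5, 438 and 5493 in the same order. Saa3 was thus close to 0 in resting neutrophils and sDCs and among the most abundant transcripts of resting macrophages. In mast cells it stood at 10, 15, 248.5 and 901. Eosinophils had a mean listed at 0 without and at 20 with LPS. With both treatments the order was macrophages, neutrophils, sDCs and mast cells.

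Saa1 and Saa2 were at or near 0 wherever IL-10 and LPS had not been combined. Saa1 was listed at 0 in macrophages untreated, with IL-10 and with LPS, and at 222.5 with both. In neutrophils it was listed at 0 untreated and with IL-10, at 1 with LPS and at 188.5 with both. Saa2 was listed at 0 in the same 3 groups of macrophages and neutrophils, and with both treatments it stood at 45 in macrophages and 85 in neutrophils. Neither gene reached the minimum of 10 in sDCs, mast cells or eosinophils, where the highest value was 1.5, for Saa1 in sDCs with both. Because the table gives normalized means, no limit can be put on what a value of 0 allows. In all, Saa1 was listed at 0 in 14 of 18 groups and Saa2 in 16.

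Hp was above 0 in all 18 groups. In macrophages it stood at 3366 untreated, 4826.5 with IL-10, 4208 with LPS and 185338 with both. In neutrophils it stood at 15147.5, 19880.5, 20333 and 185338 in the same order. Both values of 185338 are the highest value of the table, which 2 transcripts shared in each of these groups, so the true height of Hp there is not known from it. A mean reaches that value only if both replicates were at it. In sDCs Hp stood at 542, 1173.5, 1048.5 and 6245.5, in mast cells at 61.5, 66, 138 and 274.5, and in eosinophils at 72 untreated and 99 with LPS.

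Ptx3 was close to 0 in every group without LPS, between 0 and 4.5. In macrophages it stood at 678 with LPS and 475 with both, and in neutrophils at 406 with LPS and 140 with both. In sDCs it stood at 37 and 39.5, in mast cells at 17.5 and 14.5, and in eosinophils at 3 with LPS. Ptx3 was the only member whose highest group in macrophages, neutrophils and mast cells was LPS alone and not the combination.

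**Figure D1:**
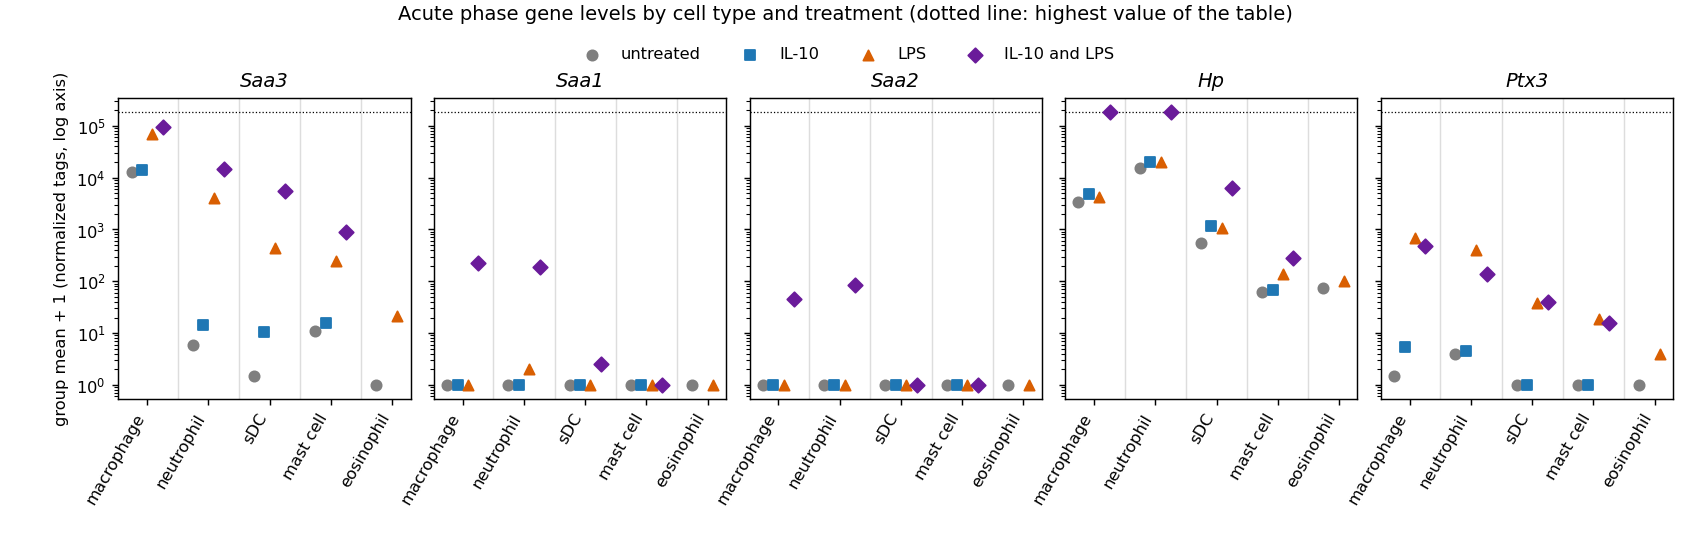
Group means of the 5 acute phase genes, as normalized tags plus 1 on a log axis, by cell type (horizontal axis) and treatment (marker shape and colour); each point is the authors' mean of 2 replicates and has no error bar. Saa1 and Saa2 leave the floor only with IL-10 and LPS in macrophages and neutrophils apart from 2 points at or under 1.5, and Hp touches the dotted line, the table's highest value, in the same 2 groups.

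Levels of different genes were compared per kilobase of transcript. In macrophages with both treatments Saa3 stood at 178539 per kb and Hp at 138003 per kb, against 368 for Saa1 and 73.8 for Saa2. In neutrophils with both treatments the levels per kb were 138003 for Hp, 27604 for Saa3, 312 for Saa1 and 139 for Saa2. The Hp levels are held down by the limit of the table, so the order of Hp and Saa3 in macrophages is not settled.

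To separate the treatments, differences were taken on log2(mean + 1) in each cell type where a gene reached a mean of 10 in any group, and a difference of at least 2-fold was called a change. A call is not a test. The 4 comparisons share groups with each other (untreated, or LPS), so they are given side by side. Saa1 and Saa2 passed the minimum only through the combined treatment. Ptx3 in all cell types where it passed, and Saa3 in sDCs and eosinophils, passed only through groups with LPS. Each of these had to be higher in some group with LPS than in untreated cells. Beside the counts stand the shares of all genes called, and since the 5 genes were picked with these comparisons in view, nothing is read from their counts against those shares.

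LPS alone raised Saa3 and Ptx3. Of 25 combinations of gene and cell type, 18 passed the minimum, and of these 11 were raised, 0 were lowered and 7 changed by less than 2-fold. Over all genes, 7.6% of combinations were raised and 8.23% lowered. Saa3 rose in 5 of 5 cell types. The log2 difference was 2.48 in macrophages, 4.50 in mast cells, 8.19 in sDCs and 9.43 in neutrophils, and in eosinophils Saa3 rose from a mean listed at 0. With the pseudocount of 1 it ranked 3 of 5949 genes by this difference in neutrophils, 1 of 6050 in sDCs and 18 of 5734 in mast cells. The smallest difference was in macrophages, where Saa3 was already high at rest. Ptx3 rose by log2 8.82 in macrophages and 6.67 in neutrophils, and from means listed at 0 in sDCs and mast cells. In eosinophils it was under the minimum, at 0 untreated and 3 with LPS. The lowest means of Saa3 and Ptx3 are so small that these folds and ranks depend on the pseudocount.

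Hp differed little with LPS. Its log2 difference was 0.32 in macrophages, 0.45 in eosinophils, 0.42 in neutrophils and 0.95 in sDCs, all under the limit of 1. In mast cells it was 1.15, where the call was made. The sDC value lies just under the limit and the mast cell value just over it. The remaining call was Saa1 in neutrophils, which rests on a mean of 1 against 0. Saa1 in macrophages and Saa2 in both cell types were listed at 0 with and without LPS.

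IL-10 alone raised few of these genes. Of 20 combinations 16 passed, 4 were raised and 0 were lowered, where 1.86% of all combinations were raised and 1.66% lowered. Hp rose in sDCs, from 542 to 1173.5 (log2 1.11), and its difference was 0.52 in macrophages, 0.39 in neutrophils and 0.10 in mast cells. The other 3 calls rest on low means, namely Saa3 in sDCs from 0.5 to 9.5 (log2 2.81), Saa3 in neutrophils from 5 to 13.5 (1.27) and Ptx3 in macrophages from 0.5 to 4.5 (1.87). With a pseudocount of 10 these 3 calls were lost. Saa3 differed by 0.16 in macrophages and 0.54 in mast cells, and Saa1 and Saa2 stayed listed at 0.

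**Figure D2:**
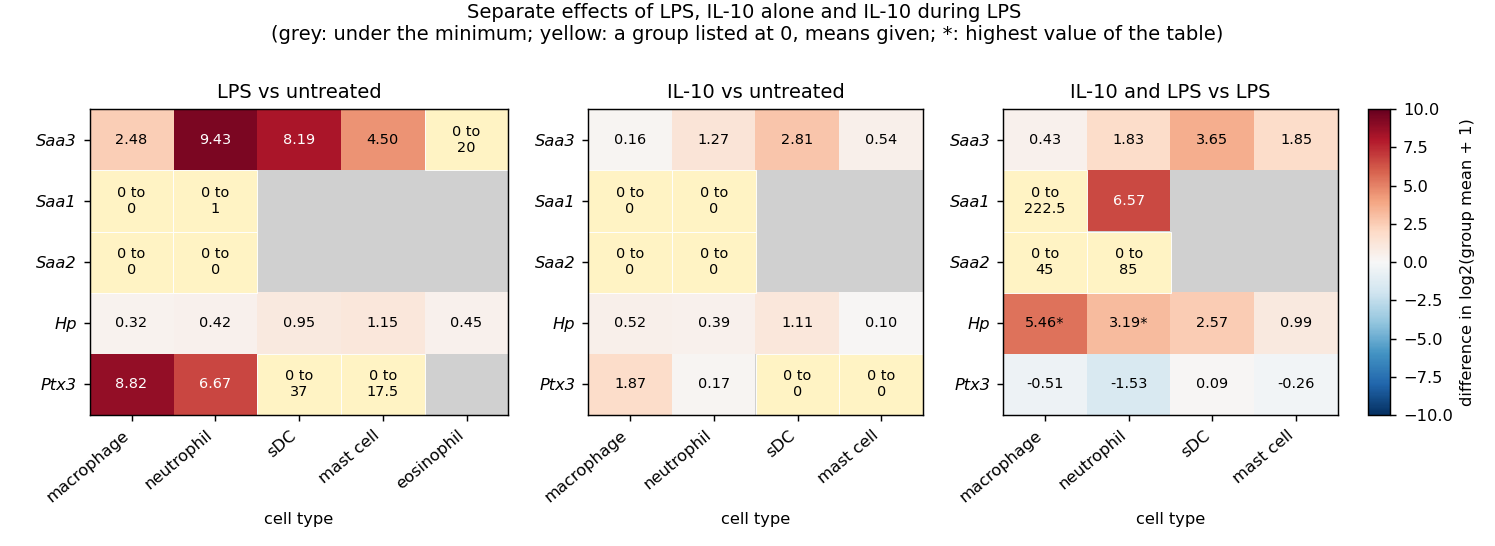
Differences in log2(group mean + 1) for each gene and cell type with LPS, with IL-10 alone and with IL-10 and LPS against LPS; red is higher, blue lower, grey marks values under the minimum of 10, and yellow cells give the means where a group was listed at 0. LPS marks Saa3 and Ptx3, and the middle panel is pale apart from low means and Hp in sDCs. The right panel is red for Hp, palest in mast cells, for Saa3, palest in macrophages, and for Saa1 in neutrophils. Ptx3 is pale or blue there. An asterisk marks values at the table's highest value.

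With IL-10 given before LPS, Hp and Saa3 were each called raised in 3 of 4 cell types, and Ptx3 in 0 of 4. Saa1 and Saa2 were called raised in the 2 cell types where they passed the minimum. Of 16 combinations that passed, 10 were raised against LPS alone, 1 was lowered and the others changed by less than 2-fold. The number raised was partly set by the minimum, since Saa1 and Saa2 passed it only through the combined treatment. Over all genes 2.92% of combinations were raised and 3.79% lowered. Hp rose in macrophages from 4208 to 185338, a ratio of 44.0 (log2 5.46), and in neutrophils from 20333 to 185338, a ratio of 9.12 (3.19). Both ratios are limited by the table's highest value. In sDCs Hp rose from 1048.5 to 6245.5 (ratio 5.96, log2 2.57). In mast cells it went from 138 to 274.5, a log2 difference of 0.99 that falls just short of the call.

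Saa1 in macrophages went from a mean listed at 0 to 222.5, and Saa2 from 0 to 45. In neutrophils Saa1 rose from 1 to 188.5 (log2 6.57), and Saa2 went from 0 to 85. The order of these genes and Hp by the size of the change depends on the pseudocount. Saa3 rose by log2 3.65 in sDCs, 1.85 in mast cells and 1.83 in neutrophils. In macrophages, where it was high with LPS alone, its difference was 0.43. The hepatic forms Saa1 and Saa2 could only rise in this comparison, since they passed the minimum only through the combined treatment. That the extrahepatic form Saa3 moved in the same direction, from a very different level, is therefore not read as a shared response.

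Ptx3 was the exception. In neutrophils it was lowered by IL-10, from 406 to 140 (log2 -1.53), which placed it at rank 5857 of 5949 genes. Its difference was -0.51 in macrophages, -0.26 in mast cells and 0.09 in sDCs, all under 2-fold. For comparison, Tnf, the cytokine most often used to follow the AIR, fell in macrophages by 3.02 on the log2 scale from a mean at the table's highest value. Its log2 differences elsewhere were -0.88 in mast cells, -1.75 in sDCs and -1.97 in neutrophils. Ptx3 and Tnf had means that went along with each other over all groups, as described below.

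**Figure D3:**
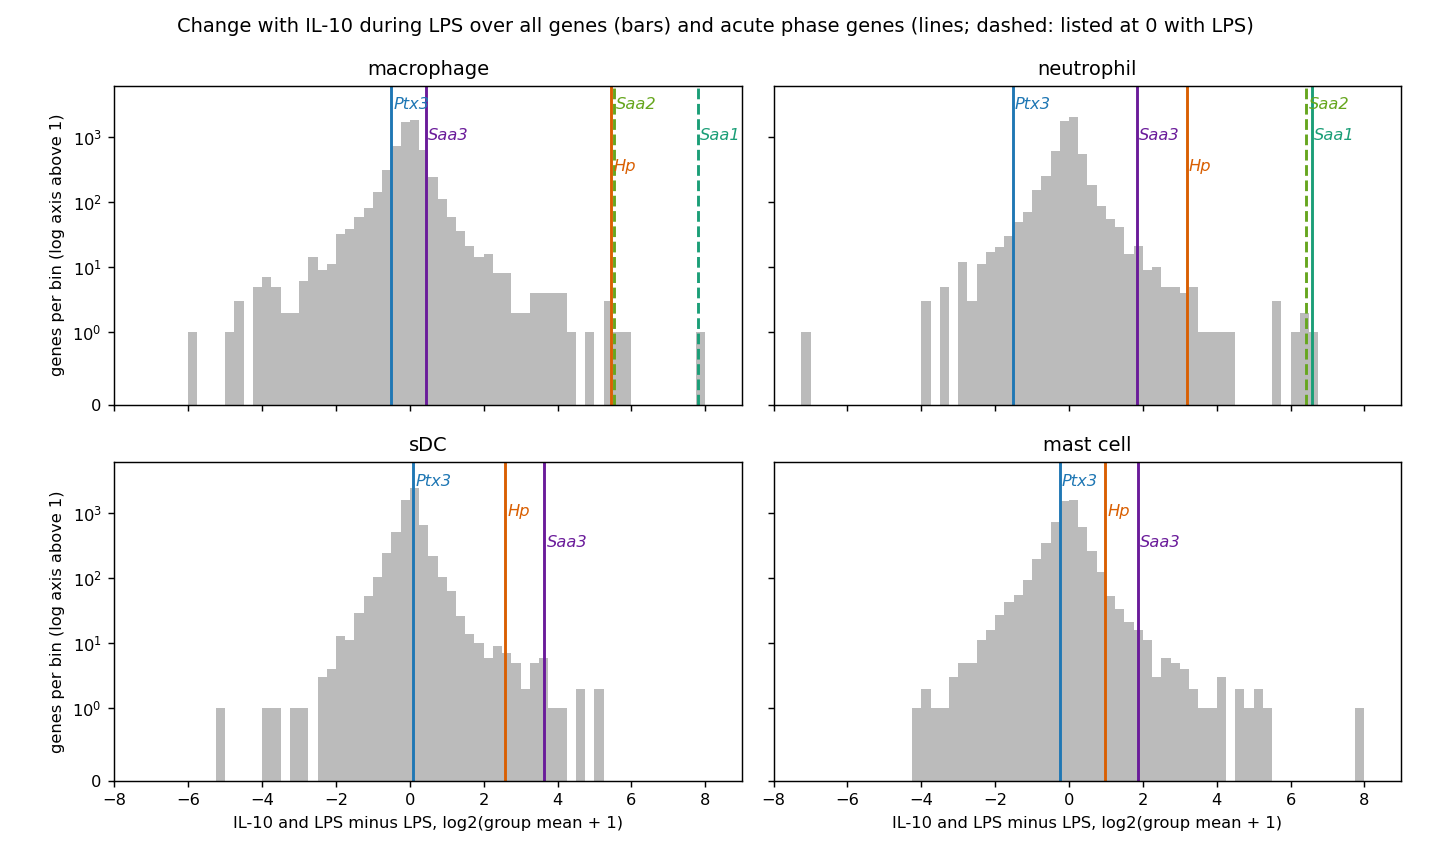
Number of genes by their difference in log2(group mean + 1) between IL-10 and LPS and LPS alone, in bins of 0.25, for 4 cell types (grey bars, vertical axis logarithmic above 1), with coloured lines at the acute phase genes that passed the minimum. Most genes lie near 0, Hp lies at 5.46 in macrophages, 3.19 in neutrophils and 2.57 in sDCs, Ptx3 lies left of 0 in all panels but sDCs, and dashed lines mark genes listed at 0 with LPS, whose place depends on the pseudocount of 1.

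Against untreated cells 16 of 16 combinations that passed were raised with both treatments, where 8.01% of all combinations were raised and 10.6% lowered. This count was partly set by the minimum, since Saa1, Saa2, Ptx3 and, in sDCs, Saa3 passed it only through groups with LPS. Saa3 rose by log2 11.84 in sDCs, 11.25 in neutrophils, 6.36 in mast cells and 2.91 in macrophages. Hp rose by 2.14 in mast cells, 3.52 in sDCs, 3.61 in neutrophils and 5.78 in macrophages. Ptx3 rose by 8.31 in macrophages and 5.14 in neutrophils and from 0 in sDCs and mast cells, so it remained raised where IL-10 had been given first.

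The combination was at least 2-fold above untreated cells and above each single treatment in 10 of 16 combinations, namely 3 of 5 for macrophages, 4 of 5 for neutrophils, 2 of 3 for sDCs and 1 of 3 for mast cells. The share over all genes was 0.765%, and by cell type 0.742%, 0.992%, 0.76% and 0.558% in the same order. Saa1 and Saa2 in macrophages and neutrophils passed the minimum only through the combined group, so their part of the 10 was set by the minimum. Hp exceeded its highest single treatment by log2 0.99 in mast cells, 2.41 in sDCs, 3.19 in neutrophils and 5.26 in macrophages. Saa3 exceeded it by 3.65 in sDCs, 1.85 in mast cells, 1.83 in neutrophils and 0.43 in macrophages.

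The change with IL-10 during LPS was also set against the change with IL-10 alone. For Hp the change during LPS was larger by log2 0.89 in mast cells, 1.46 in sDCs, 2.80 in neutrophils and 4.94 in macrophages. For Saa3 it was larger by 1.31 in mast cells, 0.84 in sDCs, 0.56 in neutrophils and 0.27 in macrophages. For Ptx3 the same value was -1.70 in neutrophils and -2.39 in macrophages, where the change with IL-10 alone starts from a mean of 0.5. Hp and Ptx3 thus lay on opposite sides of 0 in macrophages, neutrophils and mast cells. Differences between cell types in these values were not tested.

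Genes of other cells were measured beside Hp and Saa3, since both are made by more than 1 of these cell types. In macrophages the 6 neutrophil markers summed to 3393.5 untreated, 3100 with IL-10, 3748.5 with LPS and 2502.5 with both, and Ly6g was listed at 0 in all 4 groups. The sum with both treatments was mostly Mmp9 (1888) and Mmp8 (599.5), and Mmp9 stood at 3136 in macrophages with LPS alone. With both treatments Cxcr2 stood at 8, Retnlg at 7 and Elane at 0 in macrophages. In neutrophils with both they stood at 19833, 5592 and 12371.5, and Ly6g at 70.5. In neutrophils themselves the 6 markers summed to 286413 untreated and 47457.5 with LPS. The sum therefore need not follow the number of neutrophils, and their part in Hp of macrophages was not tested. In sDCs the neutrophil markers summed to 4274, 5691.5, 1771.5 and 2298 in that order of groups, and the macrophage markers to 6258, 6708, 3382 and 3461. In neutrophils the macrophage markers summed to 7588.5, 8398, 18173.5 and 10172.5. In mast cells the neutrophil markers lay between 438.5 and 704. The 6 stroma markers in the table summed to between 11558 and 15551.5 in macrophages. None of the mesothelium markers was in the table. The largest stroma marker there was Col1a2, between 7847 and 10567.5, which was at most 1.5 in the other cell types. Against LPS alone, the summed macrophage markers in neutrophils were thus lower with both treatments, and in sDCs they were nearly level. The single markers in neutrophils were divided. Emr1 (14667.5 to 5157.5) and Marco (241 to 14.5) were lower with both, Cd68 (3140 to 4387.5) and Mrc1 (124.5 to 613) were higher, and Timd4 was at or near 0. Emr1 also stood at 14338.5 in untreated eosinophils. Summed neutrophil markers were higher with both than with LPS in sDCs (2298 and 1771.5) and in neutrophils themselves (86049 and 47457.5). Of the single neutrophil markers only Elane was lower with both in sDCs (366.5 to 351.5). In neutrophils only Ly6g was lower (158.5 to 70.5), and Cxcr2 went from 3210 to 19833. The part of other cells in the Hp and Saa3 values of sDCs and neutrophils was not tested.

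Haptoglobin is stored in neutrophil granules, so 18 genes of granules and neutrophil maturation were looked up, and 10 were in the table. In neutrophils 0 of these 10 were raised by IL-10 during LPS and 0 lowered, where 3.06% and 3.87% of all genes were, with a median log2 difference of 0.39 against 0 over all genes. Over 4 cell types 2 of 36 combinations were raised and 2 lowered, against 2.92% and 3.79% over all genes. With LPS 8 of 46 combinations were raised and 13 lowered, against 7.6% and 8.23%. With IL-10 alone 2 of 36 were raised and 0 lowered, against 1.86% and 1.66%.

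Other acute phase genes were taken from a list of 42, of which 12 were in the table. LPS raised 19 of 54 combinations that passed and lowered 7, where 7.6% and 8.23% of all combinations were raised and lowered. IL-10 alone raised 9 of 44 and lowered 0, against 1.86% and 1.66%. IL-10 during LPS raised 14 of 44 and lowered 2, against 2.92% and 3.79%. Most of the 14 were Mt1 and Mt2, so the count says little about the other genes of the list. Il1r1, raised in neutrophils and mast cells, is counted again among the inducers below. The median log2 difference with IL-10 during LPS was -0.04 in macrophages, 0.03 in sDCs, 0.25 in mast cells and 0.61 in neutrophils, and over all genes it was between -0.03 and 0.04.

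The metallothioneins Mt1 and Mt2, which bind zinc and copper, were raised by IL-10 during LPS in all 4 cell types. Mt2 rose by log2 3.31 in neutrophils (160 to 1593.5), 2.95 in mast cells, 2.44 in sDCs and 2.21 in macrophages, and Mt1 by 1.55, 2.02, 1.59 and 1.47 in the same order. In mast cells IL-10 alone raised them too, Mt2 by 2.63 and Mt1 by 1.91. Among the complement genes, Cfb (factor B) rose with LPS in 5 of 5 cell types, most in neutrophils (3 to 1030, log2 8.01), and further with IL-10 in sDCs (1.51) and mast cells (1.72). C3 rose with LPS in macrophages by 1.77, neutrophils by 2.06, mast cells by 1.33 and eosinophils by 2.70, and its differences with IL-10 during LPS were -0.81, -0.56 and -0.37 in the first 3 of these cell types. C4b appeared in mast cells with IL-10, at 16 alone and 24 with LPS, from means listed at 0. Lbp, the LPS-binding protein, fell with LPS in sDCs (104 to 24, log2 -2.07) and rose with IL-10 during LPS in macrophages (73.5 to 211, 1.51).

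Of the serine protease inhibitors of the Serpina3 family, 2 rose with LPS and were lowered where IL-10 had been given first, each in 1 cell type. Serpina3f was listed at 0 in untreated macrophages and at 830.5 with LPS, rose in neutrophils from 26 to 224.5, and fell there to 101.5 with both (log2 -1.14). Serpina3g rose with LPS by 4.77 in macrophages and fell there with IL-10 during LPS (log2 -1.14). IL-10 alone raised Serpina3g in macrophages (89.5 to 329.5, log2 1.87) and Serpina3f in neutrophils (26 to 83.5, 1.65). Serpina3f also went from 0 to 65 in macrophages and from 0 to 44 in sDCs. The other differences of these 2 genes with IL-10 alone were under 2-fold. C4b and the Serpina3 genes have near-identical copies, so their counting is uncertain.

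**Figure D4:**
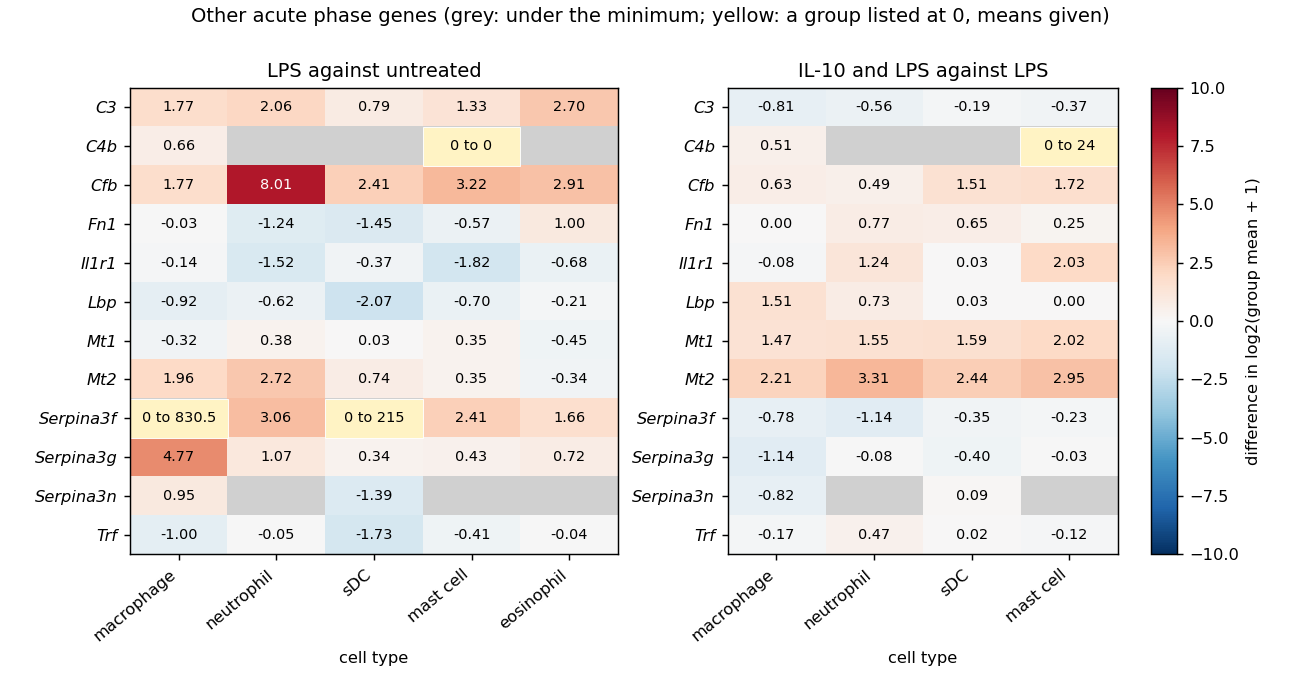
Differences in log2(group mean + 1) for 12 other acute phase genes with LPS against untreated (left) and with IL-10 and LPS against LPS (right), by cell type; colours and grey and yellow cells are as in the plot of separate effects. Mt1 and Mt2 are red across the right panel, from 1.47 to 3.31, whereas C3 and the Serpina3 genes are pale or blue there apart from a value of 0.09.

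Of 29 inducers, receptors of inducers and transcription factors of the acute phase response, 12 were in the table. LPS raised 30 of 60 combinations and lowered 2, beside shares of 7.6% and 8.23% over all genes. IL-10 alone raised 2 of 48 and lowered 1, beside 1.86% and 1.66%, and IL-10 during LPS raised 4 of 48 and lowered 8, beside 2.92% and 3.79%. Cebpb, a C/EBP factor that is itself induced in the acute phase, rose with IL-10 during LPS in sDCs from 697 to 1792.5 (log2 1.36), and its differences elsewhere were between -0.07 and 0.15. Lif, an IL-6 family cytokine, fell with IL-10 in 4 of 4 cell types, with log2 values of -1.34 in mast cells, -1.80 in sDCs, -2.11 in neutrophils and -2.68 in macrophages (1001.5 to 155). The IL-10 receptor gene Il10ra, in contrast, differed by less than 2-fold in this comparison, with log2 values between -0.72 and -0.17.

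Of 21 receptors and partners of these proteins, 8 were in the table. LPS raised 4 of 32 combinations and lowered 15 (7.6% and 8.23% over all genes). IL-10 alone raised 4 of 28 and lowered 0 (1.86% and 1.66%), and IL-10 during LPS raised 6 of 28 and lowered 1 (2.92% and 3.79%). Cd163, the haptoglobin-haemoglobin receptor, rose with IL-10 alone in macrophages from 24.5 to 88.5 (log2 1.81), and stood at 8.5 with LPS and 7 with both, where Hp was highest. Hmox1, the haem-degrading enzyme, rose with LPS in neutrophils from 2258 to 77414 (5.10) and was lowered to 35953.5 with both (-1.11). Tnfaip6, a partner of Ptx3 in the extracellular matrix, rose in neutrophils with LPS from 25.5 to 108.5 (2.05) and stood at 159 with both. Ptx3 was the only one of 7 pentraxin genes in the table.

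The pattern of each member over all 18 groups was compared with 6247 genes by Pearson correlation on log2(mean + 1), as a description. The points share cell types and treatments, and no p-value is given. Saa1 was closest to Saa2 (r = 0.98), then Zfp281 (0.82), Gyk (0.77), Il19 (0.72) and Slc16a1 (0.71), and Saa2 to Saa1, Zfp281 (0.80), Gyk (0.75), Gstcd (0.73) and Slc16a1 (0.70). With 14 and 16 groups at 0, these values rest on the few groups above 0. Hp was closest to Grpel1 (0.93), Agfg1 (0.92), Snai1 (0.92), Ppp4r1 (0.91) and Vnn3 (0.91), and Saa3 to B4galt5 (0.95), Metap1 (0.94), Anapc10 (0.92), Psmc3 (0.91) and Slmo2 (0.91). Ptx3 was closest to Tnf (0.96), Ptgs2 (0.95), Nos2 (0.93), Ddx58 (0.92) and Csf3 (0.91). Among the members, Saa3 and Ptx3 had r = 0.78, Hp and Saa1 0.68, Hp and Ptx3 0.63, Hp and Saa3 0.61, and Saa3 and Saa1 0.51.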

How the data were processed

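The deposited values are a score: per the methods of the study, the authors mapped reads to Ensembl transcripts (mm9) with RSEM 1.2.1 and bowtie 0.12.9 and used EDASeq to correct tags for GC content. The table as deposited has 1 column per group in steps of 0.5, so its values were taken as means over 2 replicates; the averaging is not described in the sources used. How transcripts were filtered is not stated in the sources used. The lowest transcript maximum is 13. The copy held 17015 complete lines and 1 broken line, and 22 lines without a gene name were left out. 1 sample, of CD4+ T cells, has no column and was not used.

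Gene values are sums of transcripts. A gene entered a cell type if any group mean there reached 10, differences were taken on log2(mean + 1), and 2-fold differences were called. The table allows no test. Sources were GENCODE vM1 on NCBIM37 for gene models, and RefSeq for promoters. Python 3.11.15, numpy 2.4.6, pandas 2.3.3, Biopython 1.88 and matplotlib 3.10.9 were used. The code for the calls was checked on a real column copied over the treatments, with known fold changes set in without noise. That check covers neither low means nor the spread between replicates. The members, lists and markers were chosen with earlier results of these data known. Named genes were the members, up to 8 other acute phase genes with a called change (largest first), and the 5 genes most correlated with each member. Tnf, Lif, Cebpb, Il10ra, Cd163, Hmox1, Tnfaip6 and Ly6g were named after their values were seen. The same holds for Il1r1 and for the markers Emr1, Marco, Cd68, Mrc1, Timd4, Mmp8, Mmp9, Col1a2, Ccr7, Itgax, Xcr1, Clec9a, Cxcr2, Retnlg and Elane.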

Additional observations from a re-analysis of the deposited data

How the results depend on the processing

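Of 66 values of the 5 genes, none that was called raised or lowered changed direction under the alternatives tried. Direction was not checked for values under 2-fold. The call changed in 4 with a pseudocount of 10 and in 2 with a 1.5-fold limit. The number of combinations raised by IL-10 alone went from 4 to 1 with a pseudocount of 10, which shrinks differences between low means, and to 2 when the minimum of 10 had to be met in a group being compared, an alternative chosen after seeing the data. The 1.5-fold limit added Hp in sDCs with LPS and Hp in mast cells with IL-10 during LPS. A pseudocount of 0.5 and rescaling by medians of ratios changed none of these calls. Taking the single highest transcript could change none, since each of the 5 genes has 1 transcript. Lifting or raising the minimum could change none either, since it only adds or drops combinations. A minimum of 50 left 53 values, and the other 13, under the minimum, had no value there. With a pseudocount of 10, Hp had a larger difference than Saa1 in macrophages with IL-10 during LPS (log2 5.46 and 4.54), and with 0.5 Saa2 a larger one than Saa1 in neutrophils (7.42 and 6.98). No paired analysis was possible because the table holds group means, and for the same reason no replicate could be left out. Normalized means give no depth, so a value of 0 has no limit attached.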
